A study of Mus musculus with 6 samples.

Results

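The organic ion and ABC transporters were described in mouse liver after acute ethanol exposure. The members were chosen by gene symbol alone: every gene of the Slco, Slc22a and Slc47a families and of ABC families a, b, c, d and g, leaving out Slco1a1, Abcb11 and genes marked as pseudogenes. This gave 78 of the 28880 genes in the table, of which 60 carried enough reads to be tested. They were read by role as 32 uptake transporters, 13 organic ion efflux transporters, 18 lipid and sterol ABC transporters, 9 ABC transporters of organelles and 6 others.

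All 6 libraries were made from whole liver of male wild type C57BL/6J mice 6 to 8 weeks old, with 3 mice in each group and all in 1 labelled batch. Ethanol-exposed mice were fasted for 12 h, dosed orally with 6 g/kg of ethanol as a 50% (v/v) solution, and sampled 24 h later, and control mice were kept without ethanol. The labels do not say that control mice were fasted or given a vehicle, so ethanol, the fast and the dosing cannot be told apart in what follows. Each library was counted as 1 mouse, as labelled.

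Transporters set what a hepatocyte takes up from portal blood and what leaves it into bile or back into blood. On the blood side, organic anion transporting polypeptides (OATPs, Slco genes) and SLC22 carriers take up bile acids, organic anions, organic cations, carnitine and drugs. On the bile side, ATP-driven ABC pumps and the proton-coupled SLC47 exchangers export conjugates, cations, phospholipid and cholesterol, while other ABC proteins carry lipids or serve peroxisomes, mitochondria and lysosomes inside the cell.

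Libraries held 60514417 to 74210869 reads counted to genes (paired-end, Illumina NovaSeq). Relative levels are given as CPM (read counts relative to library size) after trimmed mean of M-values (TMM) scaling, whose factors were 0.768 to 0.836 in ethanol-exposed and 1.26 to 1.27 in control mice. Across the 16717 genes tested, the median log2 fold change with TMM was -0.04, against -0.71 when library size alone was used, and the deposited FPKM values carry the second scale. Ethanol replicate 3 stood apart from the other two ethanol-exposed mice on the second principal component (-53.7 against 19.9 and 30.5). It was the lowest of its group in 35 of the 60 tested members and the highest in 14. Hepatocyte markers were abundant in all libraries, with a summed FPKM of 38538 to 46586. Kidney tubule markers, searched because several SLC22 genes are best known from kidney, summed to at most 0.0611.

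Among the 60 tested transporters, 6 were upregulated and 9 were downregulated in ethanol-exposed mice. A differentially expressed gene (DEG) was one whose log2 fold change exceeded 1, up or down, with an adjusted p under 0.05 (edgeR's quasi-likelihood test, Benjamini-Hochberg method applied to the whole table). The 15 DEGs were 25% of the tested members, beside 24.2% of all genes tested, with 10.4% of all genes higher and 13.8% lower. With library size alone the split was 4 higher and 23 lower (5.06% and 32.2% of all genes), and with the trend on transcript length removed it was 7 and 7 (12.2% and 10.9%). Under TMM, transporters were called about as often as genes at large. On the adjusted p alone, 11 members were higher and 14 lower, beside 43.0% of all genes called. The median log2 fold change was -0.22 over the tested members. By role, 3 of 18 tested uptake transporters rose and 3 fell, with a median of -0.44, and 1 of 12 organic ion efflux transporters rose and 1 fell, with a median of 0.22. Among lipid and sterol ABC transporters 2 of 15 rose and 3 fell (median 0.09). Among organelle ABC transporters 1 of 9 fell (median -0.41), and Abcd4 was higher on the adjusted p alone. The values of control and ethanol-exposed mice did not overlap in 35 of the 60 tested members, beside 59.0% of all genes tested. In bulk liver, fewer cells of a type and less RNA per cell cannot be told apart for any of these genes.

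**Figure D1:**
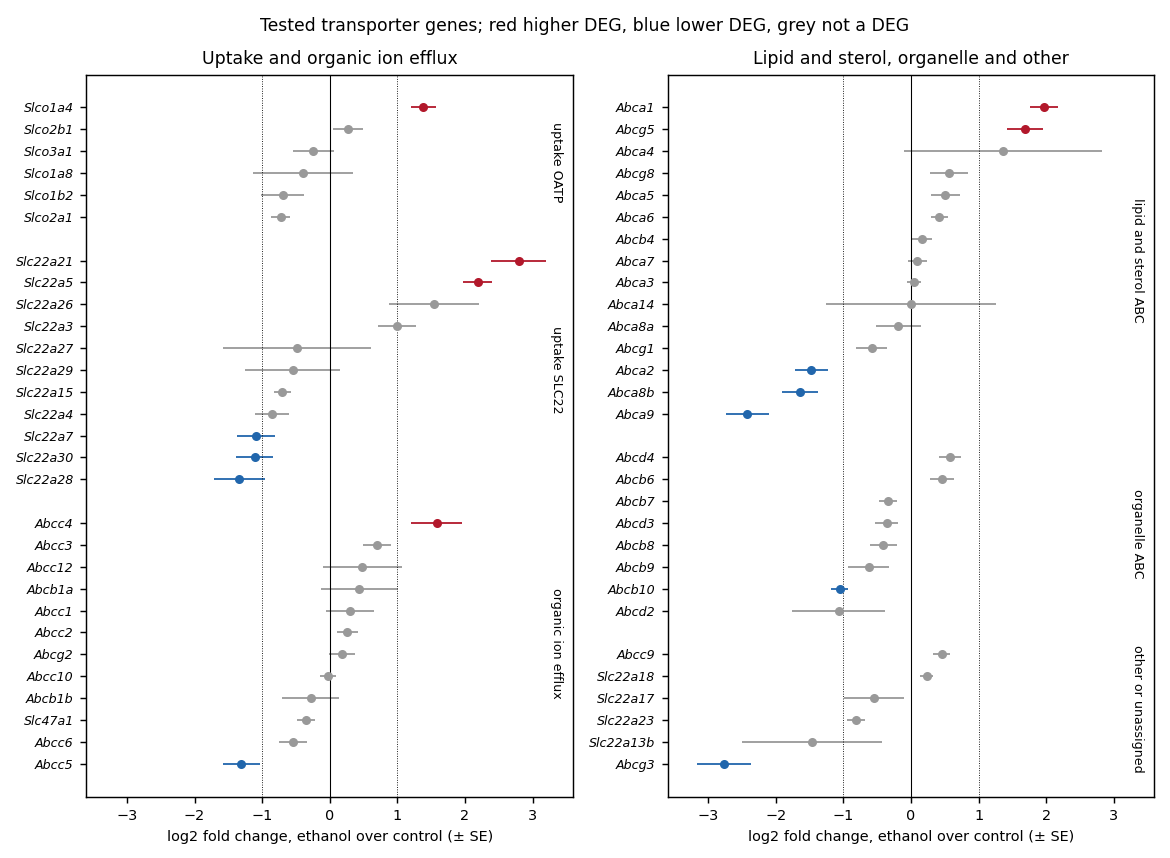
Log2 fold change of ethanol-exposed over control mice (x axis, with its standard error as a bar) for tested transporter genes (y axis), grouped by role. Red points are the 6 higher and blue points the 9 lower DEGs, and dotted lines mark a log2 fold change of 1 either way, with Slc22a21 at 2.79 and Abcg3 at -2.76 as the ends of the range.

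Ordered by FPKM, which allows levels of different genes to be compared per length, uptake carriers were among the highest. Slco1b2, the main hepatic OATP of mice, was first in control mice at 149.6 ± 10.5 FPKM (SD, n = 3). Abcd3, a peroxisomal transporter of bile acid precursors and branched fatty acids, had 78.5 ± 11.6 FPKM, and Slc22a30 had 70.0 ± 1.24 FPKM, and these neighbours did not differ beyond their spread. Abcc2, the canalicular conjugate pump MRP2, was the most abundant organic ion efflux gene at 47.3 ± 0.999 FPKM. In ethanol-exposed mice Slco1b2 was at 58.6 ± 26.5 FPKM. Abcg5 moved from place 14 in control to place 5 in ethanol-exposed mice and Abca1 from place 16 to place 6. A mean FPKM of at least 10 was reached by 22 members in control and by 16 in ethanol-exposed mice, and of at least 1 by 37 and 35. FPKM carries no TMM scaling, so the lower FPKM of a gene in ethanol-exposed mice includes the shift of the median gene given above.

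**Figure D2:**
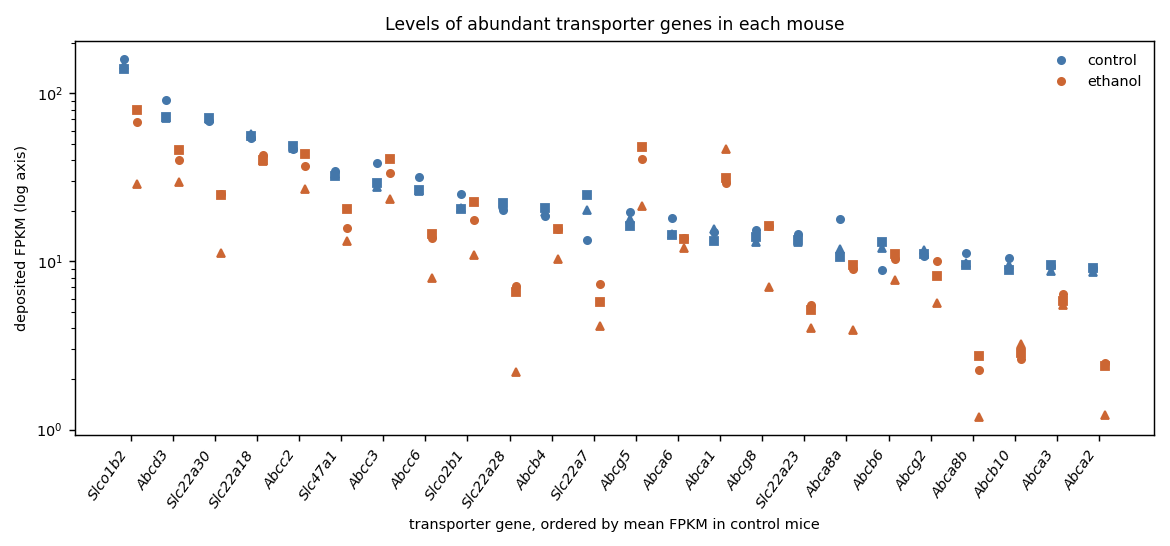
Deposited FPKM on a log axis (y) of abundant transporter genes (x), ordered by the control mean, with 1 symbol per mouse in blue for control and orange for ethanol-exposed mice. Slco1b2 has the highest control symbols of the genes shown, and Abcg5 and Abca1 are among the few genes whose ethanol symbols lie above their control symbols.

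The largest upregulation among uptake transporters was in the carnitine carriers. Slc22a5 (ENSMUSG00000018900, chromosome 11) encodes OCTN2, the sodium-dependent importer of carnitine, which cells need to bring long-chain fatty acids into mitochondria. Its levels were 12.9, 13.7 and 14.3 CPM in control replicates 1 to 3 and 50.4, 51.1 and 84.7 CPM in ethanol replicates 1 to 3. Every ethanol-exposed mouse lay above every control mouse, and the rise was 4.55-fold (log2 fold change 2.19, SE 0.22, adjusted p = 4.78e-04). Slc22a21 (ENSMUSG00000063652), a rodent carnitine carrier known as OCTN3, lies next to Slc22a5 on chromosome 11 and was far less abundant. It measured 0.533, 0.499 and 0.401 CPM in control mice and 2.40, 2.29 and 5.28 CPM in ethanol-exposed mice, again without overlap (log2 fold change 2.79, SE 0.41, adjusted p = 0.00206). In both genes ethanol replicate 3 was the highest mouse. The third neighbour, Slc22a4, encodes OCTN1, an ergothioneine carrier, and lies 2790 bases from Slc22a21 in the table's annotation. It was not a DEG and its estimate was in the other direction (log2 fold change -0.85, SE 0.25, adjusted p = 0.0308), from 3.40, 2.81 and 2.62 CPM in control to 1.37, 1.5 and 2.02 CPM in ethanol-exposed mice. Slc22a4 became a DEG without ethanol replicate 3 (-1.02), while its adjusted p was 0.067 to 0.107 when any other mouse was left out. Within a library, the FPKM ratio of Slc22a5 to Slc22a4 was 3.16, 4.08 and 4.56 in control and 30.5, 28.3 and 35.4 in ethanol-exposed mice, a quantity that no factor applied to a whole library can change. These 3 genes are closely related in sequence, and reads shared among them could have been split by the authors' counting.

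The Slc22a5 promoter is shown because the gene had the largest fold rise of the members above 10 CPM in control mice. It is the RefSeq window of 300 bases, from 250 before to 50 after the start of the gene, on the minus strand of GRCm38.p6 at chr11:53891654-53891953, and 72.7% of its bases are G or C. It held none of the 3 motifs searched (given with the promoters of Abca1, Abcc4 and Abca8b), so no base is in capitals.
Slc22a5: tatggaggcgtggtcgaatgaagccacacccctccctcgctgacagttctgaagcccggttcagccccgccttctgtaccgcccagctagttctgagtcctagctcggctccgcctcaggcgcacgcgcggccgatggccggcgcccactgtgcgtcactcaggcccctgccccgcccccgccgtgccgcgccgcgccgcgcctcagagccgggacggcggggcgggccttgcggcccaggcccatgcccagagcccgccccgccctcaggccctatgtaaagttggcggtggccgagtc

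Among the OATPs, Slco1a4 rose and the far more abundant Slco1b2 did not pass the test. Slco1a4 (ENSMUSG00000030237, chromosome 6) encodes an importer of bile acids, steroid conjugates and digoxin. It measured 31.2, 26.1 and 28.5 CPM in control and 59.0, 93.8 and 71.1 CPM in ethanol-exposed mice, which did not overlap, a 2.61-fold rise (log2 fold change 1.38, SE 0.18, adjusted p = 0.00135). Slco1b2 measured 669.9, 586 and 619 CPM in control and 456, 504 and 198 CPM in ethanol-exposed mice. The groups did not overlap, but ethanol replicate 3 was far below the other two, and the difference was short of the threshold (log2 fold change -0.69, SE 0.32, adjusted p = 0.117). Without ethanol replicate 3 the Slco1b2 estimate was smaller, at -0.37, with an adjusted p of 0.0138. Within a library the FPKM ratio of Slco1a4 to Slco1b2 was 0.0342 to 0.0357 in control and 0.0992 to 0.275 in ethanol-exposed mice. Slco1a4 lies among related Slco1a genes on chromosome 6, whose reads may be hard to assign.

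The remaining OATPs carry prostaglandins and a wide range of anions. Slco2a1, the prostaglandin transporter, is best known from endothelium and was lower without reaching the fold threshold (log2 fold change -0.73, SE 0.14, adjusted p = 0.00553). It measured 93.2, 101 and 92.4 CPM in control and 63.5, 62.6 and 47.0 CPM in ethanol-exposed mice, with no overlap. Beside this, sinusoidal endothelial markers had a summed FPKM of 31.7 to 36.4 in control and 15.4 to 29.4 in ethanol-exposed mice. These sums carry no TMM scaling, unlike the CPM of Slco2a1. With TMM 3 of the 8 markers were lower and 1, Lyve1, was higher (log2 fold change 3.59). The part of these cells in the Slco2a1 difference was not tested. Slco2b1, which carries steroid sulfates, was not called at 128, 104 and 106 against 144, 171 and 91.1 CPM (log2 fold change 0.27, SE 0.23, adjusted p = 0.370). Of the 13 OATP genes, 6 passed the filter on low counts.

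The 3 organic anion carriers Slc22a7, Slc22a30 and Slc22a28 fell, each reaching its lowest value in ethanol replicate 3. Slc22a7 (OAT2, ENSMUSG00000067144, chromosome 17), a carrier of nucleotides and small organic anions, measured 23.8, 44.1 and 36.1 CPM in control and 21.2, 15.4 and 12.1 CPM in ethanol-exposed mice (log2 fold change -1.09, SE 0.28, adjusted p = 0.0173). Slc22a30 (ENSMUSG00000052562) measured 195, 203 and 201 CPM in control and 117, 108 and 52.9 CPM in ethanol-exposed mice (log2 fold change -1.11, SE 0.28, adjusted p = 0.0158). Slc22a28 (ENSMUSG00000063590) measured 34.1, 37.7 and 36.7 CPM in control and 19.7, 17 and 6.18 CPM in ethanol-exposed mice (log2 fold change -1.34, SE 0.38, adjusted p = 0.0257). The values of the 3 genes did not overlap between groups. Slc22a28 and Slc22a30 belong to a rodent cluster of anion carriers on chromosome 19 with Slc22a26, Slc22a27 and Slc22a29, related neighbours whose reads may have been split. The 3 calls depended on single mice. Without ethanol replicate 3, Slc22a28 was at -0.97 and Slc22a30 at -0.82, both short of the fold threshold, and Slc22a7 was no longer called. Slc22a28 was not called either when any 1 control mouse was left out (adjusted p 0.0671 to 0.0751), Slc22a30 without control replicate 2 or 3 (0.0522 and 0.0523), and Slc22a7 without ethanol replicate 2 or control replicate 2 or 3.

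Lower-abundance SLC22 carriers passed the adjusted p without the fold threshold. Slc22a15, a zwitterion carrier, measured 14.2, 15.8 and 14.5 CPM in control and 9.79, 8.47 and 8.96 CPM in ethanol-exposed mice (log2 fold change -0.71, SE 0.12, adjusted p = 0.00415). Slc22a3, the extraneuronal monoamine transporter OCT3, measured 2.53, 3.15 and 5.14 against 7.09, 7.0 and 7.42 CPM without overlap (log2 fold change 0.99, SE 0.27, adjusted p = 0.0240). Slc22a3 overlaps Plg, the plasminogen gene, on the opposite strand in the table's annotation. Plg carried 131279 to 164939 counts, so without stranded counting, which the sources used here do not state, Slc22a3 reads cannot be told apart from Plg reads.

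**Figure D3:**
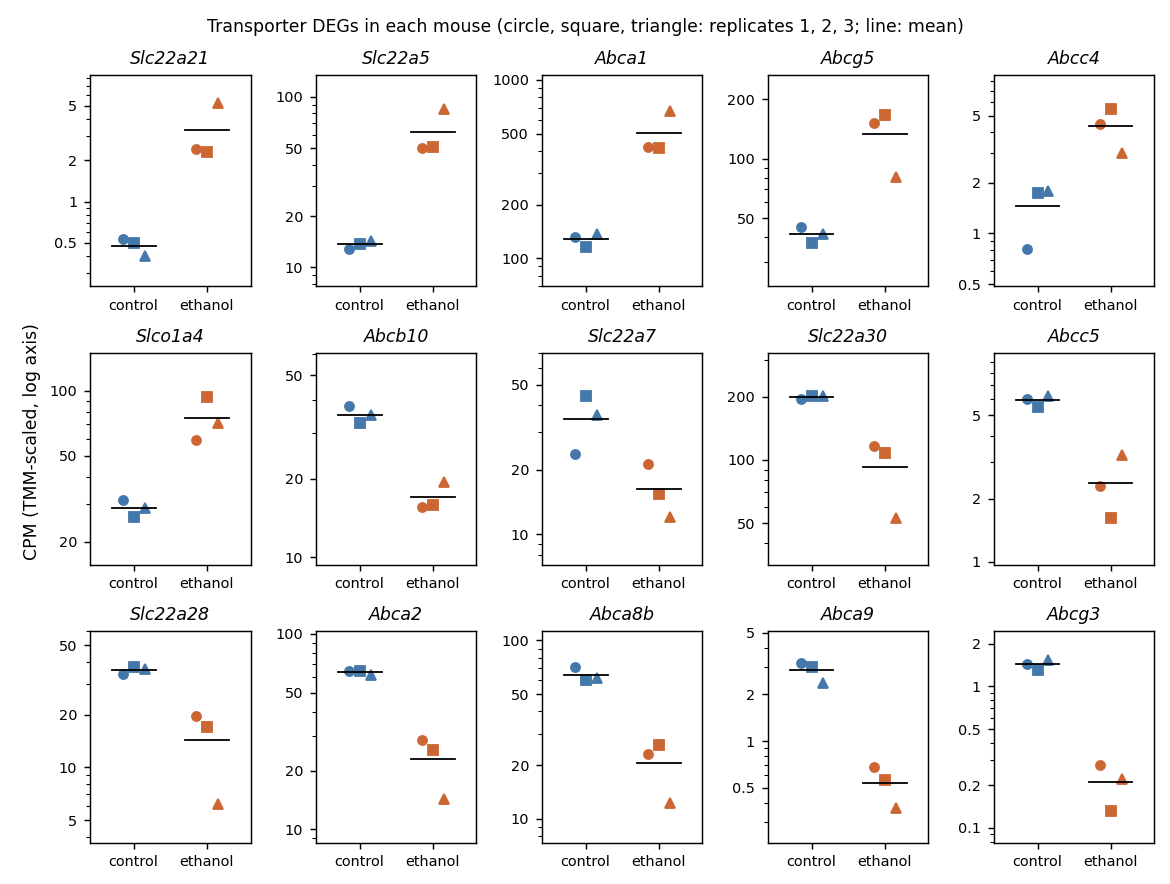
TMM-scaled CPM on a log axis (y) of the 15 transporter DEGs in each mouse, with control mice in blue and ethanol-exposed mice in orange, circle, square and triangle for replicates 1, 2 and 3 and a line at the group mean. The panels run from the largest rise (Slc22a21) to the largest fall (Abcg3), and in every panel the control and ethanol-exposed mice do not overlap.

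Of the 12 tested organic ion efflux transporters, Abcc4 rose and Abcc5 fell. Abcc4 (MRP4, ENSMUSG00000032849, chromosome 14), a pump of the blood side that exports conjugated bile acids and cyclic nucleotides, rose 2.99-fold from a low level. It measured 0.810, 1.73 and 1.80 CPM in control and 4.48, 5.48 and 2.99 CPM in ethanol-exposed mice, without overlap (log2 fold change 1.58, SE 0.38, adjusted p = 0.0142). Abcc5 (MRP5, ENSMUSG00000022822, chromosome 16), an exporter of cyclic nucleotides and glutamate conjugates, fell from 6.00, 5.49 and 6.22 CPM to 2.31, 1.62 and 3.23 CPM (log2 fold change -1.31, SE 0.27, adjusted p = 0.00803). Abcc3 (MRP3), which returns glucuronides to blood, passed the adjusted p but not the fold threshold, with 185, 141 and 134 CPM in control and 264, 296 and 186 CPM in ethanol-exposed mice (log2 fold change 0.70, SE 0.20, adjusted p = 0.0297). The members of this class that serve the bile canaliculus were not called with all mice. Abcc2 measured 335, 350.4 and 341 against 433, 473 and 319 CPM (log2 fold change 0.26, SE 0.16, adjusted p = 0.224). Abcg2 (BCRP), which exports sulfates and urate, measured 74, 76.7 and 81.2 against 113, 86.0 and 64.3 CPM (log2 fold change 0.18, SE 0.19, adjusted p = 0.480). Slc47a1 (MATE1), the proton-coupled exit of cations into bile, measured 98.5, 92.9 and 95.8 against 73.4, 88.6 and 62.8 CPM (log2 fold change -0.35, SE 0.14, adjusted p = 0.0757). In Abcc2 and Abcg2 ethanol-exposed mice lay on both sides of the control mice, and in Slc47a1 below them. These results depended on single mice. With each mouse left out in turn, Abcc2 ranged from 0.14 to 0.42 (adjusted p 0.00462 to 0.542). Abcg2 ranged from -0.039 to 0.37 (0.0360 to 0.870) and Slc47a1 from -0.49 to -0.23 (0.0241 to 0.184). Abcc3 ranged from 0.55 to 0.88 (0.00134 to 0.113). The drug pumps Abcb1a (log2 fold change 0.43, adjusted p = 0.565) and Abcb1b (-0.28, 0.615) were not called, and as close paralogs they may share reads. Abcc1 (0.30, adjusted p = 0.520) and Abcc6, the liver ATP exporter (-0.55, adjusted p = 0.0749), were not called either.

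Within the efflux class the balance among pumps differed between groups in ratios within a library, which no factor applied to a whole library can change, though a correction by transcript length could. These ratios were chosen after their values were seen and carry no test. The FPKM ratio of Abcc3 to Abcc2, blood-side over bile-side conjugate pump, was 0.590 to 0.827 in control and 0.871 to 0.937 in ethanol-exposed mice. The ratio of Abcc3 to Abcc6 was 1.06 to 1.21 in control and 2.43 to 2.92 in ethanol-exposed mice. Summed over each role, uptake genes were 2.62, 2.96 and 3.01 times the organic ion efflux genes in control mice and 2.47, 2.28 and 2.09 times in ethanol-exposed mice, which did not overlap. Slco1b2, not called above, held on average 149.6 of 444 FPKM of uptake genes in control and 58.6 of 247 in ethanol-exposed mice. Slco1a1 and Abcb11 are not in these sums, so the ratio is not that of all liver uptake and efflux. Summed FPKM of uptake genes was 434 to 449 in control and 166 to 296 in ethanol-exposed mice, of organic ion efflux genes 149.6 to 166 and 79.2 to 129.97, of organelle ABC transporters 113 to 133 and 48.3 to 70.8, and of the other members 70.4 to 72.8 and 45.0 to 49.6, each without overlap. The sums of lipid and sterol transporters overlapped, at 119.8 to 138 and 110.5 to 147, and these sums carry no TMM scaling.

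**Figure D4:**
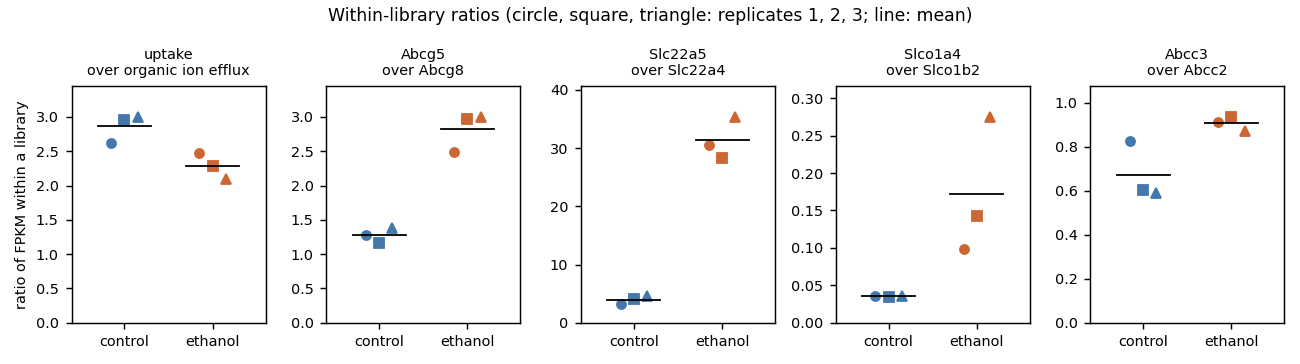
Ratios of FPKM values within a library (y axes from 0) for control (blue) and ethanol-exposed (orange) mice, with circle, square and triangle for replicates 1, 2 and 3 and a line at the mean. In each of the 5 ratios the groups do not overlap, and the ratio of Slc22a5 to Slc22a4 has the widest gap, 3.16 to 4.56 in control against 28.3 to 35.4 in ethanol-exposed mice.

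Of the lipid and sterol ABC transporters, the cholesterol exporters Abca1 and Abcg5 rose. Abca1 (ENSMUSG00000015243, chromosome 4) loads cholesterol and phospholipid onto apolipoprotein A-I at the blood side and so starts the formation of HDL. It measured 131, 116 and 138 CPM in control and 421, 414 and 671 CPM in ethanol-exposed mice, a 3.91-fold rise without overlap (log2 fold change 1.97, SE 0.21, adjusted p = 6.26e-04). Its highest mouse was ethanol replicate 3. Abcg5 (ENSMUSG00000040505, chromosome 17) forms with Abcg8 the heterodimer that exports cholesterol and plant sterols into bile. Abcg5 measured 45.2, 37.5 and 41.5 CPM in control and 151, 167 and 80.4 CPM in ethanol-exposed mice, a 3.21-fold rise without overlap (log2 fold change 1.68, SE 0.26, adjusted p = 0.00265), with ethanol replicate 3 the lowest of its group. Its partner Abcg8 was not called at 48.9, 44.4 and 41.6 CPM in control and 84.4, 77.8 and 37.0 CPM in ethanol-exposed mice (log2 fold change 0.56, SE 0.29, adjusted p = 0.152), and there ethanol replicate 3 lay below the control mice while the other two lay above them. Without ethanol replicate 3 the Abcg8 estimate was 0.86 (adjusted p = 1.89e-04), still short of the fold threshold. Within a library the FPKM ratio of Abcg5 to Abcg8 was 1.28, 1.17 and 1.38 in control and 2.48, 2.97 and 3.0 in ethanol-exposed mice, so the partners were measured in different proportion in every mouse of the exposed group. The gene models of the pair overlap on opposite strands in the table's annotation, and how reads of the overlap were assigned is not given in the sources used here.

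The shared promoter of the pair is shown because the partners start close to each other on opposite strands. RefSeq places the start of Abcg5 at base 84683011 and that of Abcg8 at base 84683121 of chromosome 17 (GRCm38.p6), 109 bases apart, and RefSeq's promoter windows of the pair share 209 of their 300 bases. The window of Abcg5 is printed on its own strand, the minus strand, at chr17:84682962-84683261, and capitals mark the 109 bases between the starts, 45.9% of which are G or C.
Abcg5: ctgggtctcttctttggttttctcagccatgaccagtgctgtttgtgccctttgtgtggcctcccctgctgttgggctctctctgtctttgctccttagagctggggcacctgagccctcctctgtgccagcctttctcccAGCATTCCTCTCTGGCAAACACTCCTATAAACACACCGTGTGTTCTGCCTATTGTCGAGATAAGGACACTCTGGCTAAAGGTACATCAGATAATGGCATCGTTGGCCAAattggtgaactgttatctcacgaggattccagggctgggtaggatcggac

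In the Abca group Abca8b, Abca9 and Abca2 fell. Abca8b (ENSMUSG00000020620), which has been linked to sterol and drug export, and its neighbour Abca9 (ENSMUSG00000041797) lie with Abca8a, Abca6 and Abca5 in a row on chromosome 11. Abca8b measured 70.6, 60.1 and 61.7 CPM in control and 23.1, 26.1 and 12.3 CPM in ethanol-exposed mice, a 3.13-fold fall (log2 fold change -1.65, SE 0.27, adjusted p = 0.00300). Abca9 was low in control mice at 3.22, 3.01 and 2.37 CPM and lower in ethanol-exposed mice at 0.678, 0.556 and 0.366 CPM (log2 fold change -2.42, SE 0.32, adjusted p = 0.00139). The other members of the row did not follow. Abca6 passed the adjusted p in the upward direction, short of the fold threshold (log2 fold change 0.42, SE 0.12, adjusted p = 0.0290), and Abca8a (-0.19, adjusted p = 0.679) and Abca5 (0.51, adjusted p = 0.0911) were not called. Abca2 (ENSMUSG00000026944, chromosome 2), a lysosomal lipid transporter best known from myelin-forming cells, fell from 64.5, 64.5 and 61.8 CPM to 28.8, 25.5 and 14.3 CPM (log2 fold change -1.48, SE 0.24, adjusted p = 0.00327). In the 3 genes every ethanol-exposed mouse was below every control mouse, and ethanol replicate 3 was the lowest. Abcb4 (MDR2), which flips phosphatidylcholine into bile, was not called, with 148, 165 and 158 CPM in control and 201, 188 and 136 CPM in ethanol-exposed mice (log2 fold change 0.16, SE 0.16, adjusted p = 0.457). With each mouse left out in turn its estimate was 0.046 to 0.32 (adjusted p 0.0166 to 0.857).

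Among the 9 organelle ABC transporters Abcb10 was the DEG. Abcb10 (ENSMUSG00000031974, chromosome 8), a mitochondrial inner membrane protein needed for haem synthesis and biliverdin export, fell from 38.0, 32.7 and 35.0 CPM to 15.7, 15.9 and 19.4 CPM (log2 fold change -1.05, SE 0.13, adjusted p = 0.00101). This was close to the fold threshold, and the estimate was -1.0 without ethanol replicate 1 or without control replicate 1, just short of it. Abcd4, which serves lysosomal vitamin B12 release, was higher by less than the threshold, from 10.3, 8.75 and 9.0 CPM to 13.3, 11.9 and 16.5 CPM (log2 fold change 0.57, SE 0.16, adjusted p = 0.0252). Abcd3, the most abundant of the class, was not called at 512, 402 and 401 against 363, 388 and 272 CPM (log2 fold change -0.36, SE 0.17, adjusted p = 0.128). Abcd2, a peroxisomal fatty acid transporter at low level, had a large but uncertain estimate (log2 fold change -1.07, SE 0.69, adjusted p = 0.246).

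Of the 6 other members, Abcg3 (ENSMUSG00000029299, chromosome 5), a rodent relative of Abcg2 whose substrate is not established, had the largest fall among the tested members. It measured 1.44, 1.31 and 1.54 CPM in control and 0.278, 0.131 and 0.220 CPM in ethanol-exposed mice (log2 fold change -2.76, SE 0.39, adjusted p = 0.00182). These were 100 to 135 reads in control and 8 to 16 reads in ethanol-exposed libraries, few enough that counting error adds to the spread. Of 5 T cell markers 2 were tested, of which Cd4 fell and Cd3e was not called (log2 fold change -0.21, adjusted p = 0.893). The T cell markers had a summed FPKM of 0.715 to 1.07 in control and 0.105 to 0.159 in ethanol-exposed mice. Of 4 B cell markers 1 fell, with summed FPKM of 0.612 to 1.22 and 0.257 to 1.01, and these sums carry no TMM scaling. The part of these cells in the Abcg3 fall was not tested. Slc22a23, an orphan carrier, was lower by less than the threshold, from 78.3, 72.6 and 71.2 CPM to 48.3, 41.9 and 35.8 CPM (log2 fold change -0.82, SE 0.13, adjusted p = 0.00289). Abcc9, a regulatory subunit of ATP-sensitive potassium channels, was higher by less than the threshold (log2 fold change 0.45, SE 0.13, adjusted p = 0.0273). The 21 tested members not named by the rule for named genes had log2 fold changes of -1.46 to 1.54 and a smallest adjusted p of 0.0733. Of the 18 members not tested, 5 had no read in any library, and 7, these 5 included, had at most 3 reads in each library, the detection floor used here. The highest count of any of them was 24, and 14 of the 18 were uptake genes.

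Promoters of 3 further DEGs are shown because they hold CACGTG, the E-box letters read by many basic helix-loop-helix factors, and because their genes moved in different directions. RefSeq promoter windows existed for 43 of the 60 tested members and 13 of the 15 DEGs. CACGTG, which reads the same on both strands, was found in 3 of these 13 (Abca1, Abcc4 and Abca8b) and in 5 of the 43, beside 7.15% of all 32851 promoter windows. AGGTCA, the letters of the core site of many nuclear receptors, was found on either strand in 0 of 13 and 6 of 43, beside 16.3% of all windows. TGACNNNGC, letters of the antioxidant response element, was found on either strand in 2 of 13 (Abca8b and Abcc4) and 6 of 43, beside 12.4% of all windows. A member was counted when any of its windows held the letters, while the share of all windows counts each window singly. Members with several windows thus had more chances, and the counts and shares are not like for like. These matches are descriptions of letters in a window and not of factor binding. The Abca1 window (chr4:53159846-53160145) holds CACGTG 147 bases before the start, the Abcc4 window (chr14:118706170-118706469) 205 bases before it and the Abca8b window (chr11:109995796-109996095) 18 bases after it. All 3 are printed on the minus strand of GRCm38.p6, with CACGTG in capitals.
Abca1: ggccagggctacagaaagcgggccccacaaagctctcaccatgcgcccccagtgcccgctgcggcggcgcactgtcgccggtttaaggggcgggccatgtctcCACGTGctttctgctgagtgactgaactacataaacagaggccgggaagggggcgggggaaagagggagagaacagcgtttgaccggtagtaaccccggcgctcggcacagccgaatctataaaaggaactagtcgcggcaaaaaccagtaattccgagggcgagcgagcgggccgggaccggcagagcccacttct
Abcc4: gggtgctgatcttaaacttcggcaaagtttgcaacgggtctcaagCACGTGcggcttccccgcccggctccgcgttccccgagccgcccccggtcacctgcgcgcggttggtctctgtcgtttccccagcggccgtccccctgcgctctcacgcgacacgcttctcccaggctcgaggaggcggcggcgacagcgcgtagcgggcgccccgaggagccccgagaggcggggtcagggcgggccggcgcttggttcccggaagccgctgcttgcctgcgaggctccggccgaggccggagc
Abca8b: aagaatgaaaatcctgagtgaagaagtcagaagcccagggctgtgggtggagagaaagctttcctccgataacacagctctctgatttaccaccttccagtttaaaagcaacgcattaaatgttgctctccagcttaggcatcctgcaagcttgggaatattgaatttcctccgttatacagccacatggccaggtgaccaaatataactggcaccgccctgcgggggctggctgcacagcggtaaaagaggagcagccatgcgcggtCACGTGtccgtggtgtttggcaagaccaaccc

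Other transporter genes outside these families, from a list of 16, showed 1 higher and 3 lower DEGs among 14 tested, beside 10.4% and 13.8% of all genes. With library size alone the split was 1 and 6, beside 5.06% and 32.2% of all genes. Slc10a2, the apical bile acid importer of ileum and bile ducts, rose from 26.0 ± 7.31 to 105 ± 16.9 CPM (SD, n = 3; log2 fold change 2.01, adjusted p = 8.95e-04). Slc10a5, an orphan relative of the bile acid importers, fell from 26.8 ± 5.62 to 5.98 ± 1.29 CPM (-2.17, adjusted p = 4.81e-04). The copper pump gene Atp7b (-1.12, adjusted p = 0.00143) and Slc51b, the beta subunit of the blood-side bile acid exporter (-1.66, adjusted p = 0.0264), fell as well. Atp7b was called in 16 of the 18 settings run. It fell short of the fold threshold with the trend on transcript length removed (-0.90) and without control replicate 1 (-0.99). Slc51b was called in 10 of the 15 settings that tested it, and not with the replicate block (adjusted p = 0.0535) or without ethanol replicate 1 or 2 or control replicate 1 or 3 (0.0513 to 0.103).

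Of 16 genes for transcription factors and their partners known to regulate transporters, all tested, 4 were higher and 1 was lower, beside 10.4% and 13.8% of all genes. With library size alone 5 were lower, beside 32.2% of all genes, and the 4 genes called higher under TMM kept positive estimates but were not called. Nr1i2, the xenobiotic receptor PXR, rose to 138 ± 47.6 CPM (log2 fold change 1.20, adjusted p = 0.00912). Ahr, the dioxin receptor (1.70, adjusted p = 0.0109), its partner Arnt (1.48, adjusted p = 0.00201) and Nr1h4, the bile acid receptor FXR (1.02, adjusted p = 0.00698), were the other higher genes. Nr1h4 lay close to the fold threshold and was called in 8 of the 18 settings run. Nr0b2 (SHP), the repressor that the bile acid receptor induces, fell from 42.9 ± 10.5 to 5.69 ± 0.834 CPM (-2.92, adjusted p = 1.93e-04). Among 9 scaffold and trafficking genes 1 fell, beside 13.8% of all genes: Rdx, radixin, which anchors Abcc2 at the canaliculus, fell to 44.7 ± 3.65 CPM from 137 ± 8.53 CPM (-1.62, adjusted p = 1.28e-04), while Abcc2 itself was not called. Nherf1, another canalicular scaffold, was higher on the adjusted p alone, just short of the fold threshold (log2 fold change 0.97, adjusted p = 4.28e-04). With library size alone 4 of the 9 were lower, beside 32.2% of all genes: Rdx, Hax1, Myo5b and Pdzk1.

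All 15 transporter DEGs kept their direction under 4 other scalings of the counts (median ratio, upper quartile, library size alone, and TMM with the trend on transcript length removed), and 40 of the 60 tested members did. With library size alone Abcc4 (0.92) and Slco1a4 (0.72) dropped below the fold threshold, and Abcc2, Abcg2, Abcb4, Slco2b1 and Abcg8, all with positive estimates under TMM, turned negative. Members also had longer transcripts than genes at large, with a median of 6347 bases against 4055. These lengths were not read from an annotation but are those implied by the deposited counts and FPKM. With the trend of fold change on transcript length removed, Slc22a30 (-0.90) and Abcb10 (-0.86) were no longer called. Slc22a5, Slc22a21, Abca1, Abca2, Abca8b, Abca9, Abcc5 and Abcg3 were called under each alternative that tested them.

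**Figure D5:**
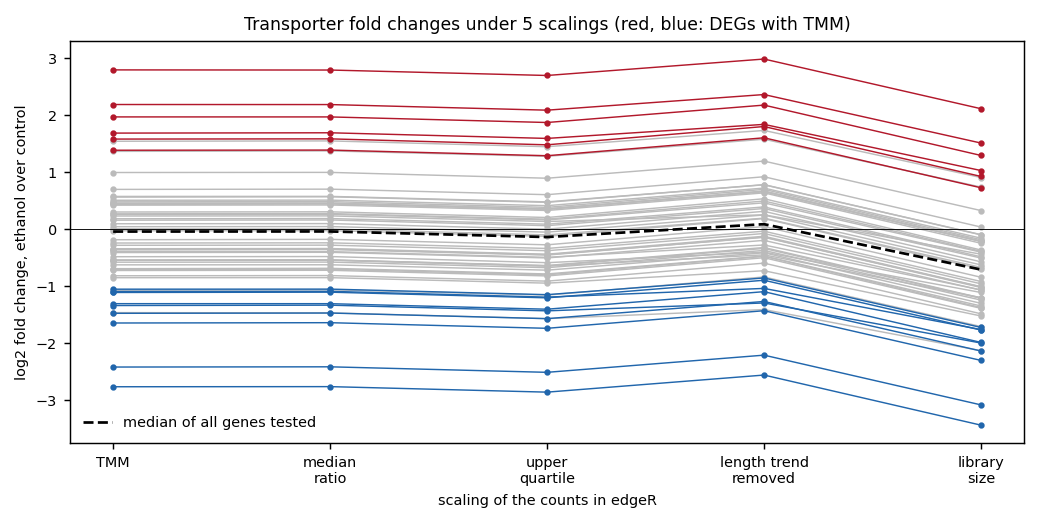
Log2 fold change (y axis) of tested transporter genes under 5 scalings of the counts in edgeR (x axis), with 1 line per gene, red and blue for the higher and lower DEGs under TMM and grey for the rest. The dashed line, the median of all genes tested, moves from -0.04 with TMM to -0.71 with library size alone, and no red or blue line crosses 0.

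Markers of other liver cells are given beside these results because whole tissue was sampled. Neutrophil markers had a summed FPKM of 0.737 to 0.971 in control and 2.45 to 14.4 in ethanol-exposed mice, with 4 of 5 tested higher. Erythroid markers were higher in 4 of 5 (201 to 250.3 against 532 to 761). Kupffer cell markers summed to 69.6 to 76.1 and 37.0 to 47.4 FPKM with 2 of 8 lower on the adjusted p alone. Of 8 stellate cell markers 3 were higher on the adjusted p alone and Col1a1 was a lower DEG (log2 fold change -1.90). Stellate cell markers summed to 28.5 to 29.7 and 20.6 to 25.8 FPKM. These sums carry no TMM scaling. Cholangiocyte markers, of the cells that also carry Slc10a2, summed to 20.2 to 49.1 and 16.3 to 25.1 FPKM, again without TMM scaling, with 1 of 6 higher. Hepatocyte markers were higher in 2 of 8, and on the adjusted p alone in 5 of 8, with 0 lower (median log2 fold change 0.60). The part of these cells in the transporter differences was not tested.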

How the data were processed

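Liver RNA-seq libraries of 3 ethanol-exposed and 3 control mice were analysed. The authors deposited whole-number read counts per Ensembl gene, not normalized. FPKM values, which the authors deposited in the same table, adjust for gene length and total reads. Reads were cleaned and aligned by the authors with pipelines they call standard. The aligner, counter and strand setting are not given in the sources used here, and the submitters' processing notes name GRCm38 and mm10. In the table, 494 of 27049 genes shared with a GRCm38 annotation had the same position, so none of the table's coordinates are printed and promoters come from RefSeq (GRCm38.p6). A column of counts that matches no library (1 in all) was not used.

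Members, roles, gene lists and tests were chosen with earlier results of these data known. Counts were filtered with filterByExpr, scaled with TMM and tested with edgeR 4.0.16 (R 4.3.3), without a block, since no label pairs mice by replicate number. Adjusted p-values cover all 16717 genes tested. Named were all DEGs, the main liver transporters whatever their call, and up to 5 members sharing a description. A few members are counted but not reported by name. Sums and ratios used FPKM within a library. Alternatives were 4 other scalings, low-count filters, DESeq2 1.42.0, limma 3.58.1 with voom or on log2(FPKM + 1) and log2(FPKM + 0.1), a replicate block, each replicate left out, and the adjusted p alone. The scripts were tested on simulated data. Nothing states more than that the libraries are separate mice, and p-values measure the spread between them. A count of 3, the floor used, was 0.0320 to 0.0550 CPM and covers counting error only.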

Additional observations from a re-analysis of the deposited data

How the results depend on the processing

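The 15 DEGs among the members kept their direction under every alternative run that tested them. With library size alone 23 members were lower DEGs in place of 9 (7 uptake, 3 efflux, 6 organelle), and the count of higher efflux DEGs was 0 by edgeR. Its estimates turned negative for Abcd4 (-0.10), Abcc1 (-0.37), Abcg8 (-0.10), Abcc2 (-0.40), Abcg2 (-0.49), Abcc9 (-0.22), Slco2b1 (-0.39), Abcb1a (-0.21), Abcb4 (-0.51) and Abca6 (-0.25). Limma on log2(FPKM + 1) and on log2(FPKM + 0.1), which carry the same scale and tested 38 members, gave 2 higher members each, 1 of them in uptake, 1 among lipid and sterol transporters and 0 among efflux transporters; at 0.1 there were 16 lower members (higher and lower shares of all genes 3.92% and 16.8% at 1, and 4.99% and 30.6% at 0.1). Lower uptake DEGs were then 5 and 7, lower organelle DEGs 3 and 4, and lower efflux DEGs 2 at 0.1. With a pseudocount of 1, then 0.1, the sign reversed for Abcd4 (-0.0599, -0.10), Abcg8 (-0.17, -0.19), Abcc2 (-0.42, -0.43), Abcg2 (-0.47, -0.52), Abcc9 (-0.12, -0.20), Slco2b1 (-0.42, -0.44), Abcb4 (-0.50, -0.53) and Abca6 (-0.23, -0.24). Slco1a4 and Abcg5 were not called in these FPKM fits. With a mean FPKM of at least 1, which left 36 members, efflux had 0 higher and 0 lower DEGs, since Abcc4 and Abcc5 were not tested. Of all genes then tested, 10.6% were higher and 12.1% lower DEGs. With the length trend removed, organelle DEGs were 0 lower. On the adjusted p alone 11 members were higher and 14 lower, with 6 lower in uptake, 2 higher in efflux, and 1 higher and 2 lower among organelle transporters.

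Leaving out each replicate gave 0 to 3 lower uptake DEGs (1 without ethanol replicate 3, Slc22a4, and 0 without control replicate 2 or 3) and 0 to 1 lower organelle DEGs (0 without ethanol replicate 1 or control replicate 1). Of all genes, lower DEGs were 16.5% without ethanol replicate 3, and 10.1% and 9.88% without control replicates 2 and 3. They were 11.9% without ethanol replicate 1 and 10.2% without control replicate 1. Estimates ranged from -0.76 to 0.0415 for Abcb1b, -0.039 to 0.37 for Abcg2 and -0.0056 to 0.96 for Abcb1a. A fit with the replicate number as a block gave 7 higher and 9 lower members (9.08% and 12.0% of all genes), Slc22a3 (1.06) being the one added. Mice of the same number did not deviate together (correlations -0.042, -0.027 and -0.0075, beside -0.013 to 0.034 for mice of different number). No label pairs mice by number, and whether mice of the same number were handled together was not tested. Over all genes, 57.0% of DEGs were lower with TMM, 86.4% with library size alone, 63.4% with upper quartile scaling and 47.1% with the length trend removed. With 3 mice in a group, moderate changes of variable genes such as Slco1b2 could not be settled at this number. The cause of these shifts was not tested.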
